A study of Mus musculus with 16 samples.

Results

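The genes described here encode nuclear subunits of respiratory complexes II, III and IV, of ATP synthase and of cytochrome c, 37 of the 23946 genes measured. They were taken from a list of names, 4 for complex II, 9 for complex III, 1 for cytochrome c, 7 single-isoform subunits of complex IV and 16 for ATP synthase. RNA was sequenced from the free wall of the right ventricle (RV) and of the left ventricle (LV) of adult male FVB mice aged 10 to 13 weeks, FVB being an inbred strain with no engineered allele named. Pulmonary artery banding narrows the outflow of the right ventricle and raises its pressure load, and the comparison asks what differs in the failing right ventricle. The 4 groups were RV sham, RV banded, LV sham and LV banded, each of 4 libraries of polyA RNA. The labels call the operated group PS and the protocol names banding and sham surgery alone, so PS was read as banded. Sham libraries carry the numbers 1 to 4 and banded libraries the numbers PS_9552, PS_9553, PS_9561 and PS_9564 in both ventricles, and the labels do not say that a number stands for 1 mouse. Neither the time after surgery nor the number of animals behind a library is stated in the labels.

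Complex II oxidizes succinate and passes electrons to ubiquinone, complex III moves them from ubiquinol to cytochrome c, and complex IV passes them from cytochrome c to oxygen. Complexes III and IV pump protons, and ATP synthase lets the protons return through its membrane ring while its catalytic head makes ATP. Heart muscle is dense in mitochondria and depends on this route for most of its ATP. Complex II is encoded wholly in the nucleus, whereas complexes III and IV and ATP synthase also hold subunits of the mitochondrial genome. Of 6 names of such genes looked for, 0 were among the genes measured, so they were not analysed here.

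Levels are FPKM, fragment counts scaled to transcript length and to the size of the library. Changes are differences in log2(FPKM + 1) from limma with Benjamini-Hochberg adjusted p-values over 12100 genes. Libraries differed in their overall scale, so each change was fitted on the values as deposited and on values divided by a scale factor for each library, called rescaled below. A gene was called where both fits passed an adjusted p of 0.05 in the same direction. Every other scaling named below was 1 fit, and a call under it needed that fit alone. Since nothing in the labels says that libraries came from separate animals, the p-values cover sample-to-sample spread alone, part of which may be technical.

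Promoters of the members are shown first because most members moved together. RefSeq promoter windows, 250 bases before to 50 after the start, were found for 30 of the 37 members in build GRCm38.p6. Motifs were searched on both strands, and no matches of different motifs overlapped in the bases shown. The NRF1 motif, GCGCA and GCGC with any 1 base between them, lay in the windows of 9 of 30 members and of 5.19% of all 27025 genes. The GABP motif CCGGAAG lay in 11 of 30 and in 9.93% of all genes, the ERR motif TCAAGGTCA in 2 of 30 and in 0.466%, and the YY1 motif AAGATGGCG in 2 of 30 and in 1.64%. No match was found in 12 members. The 150 bases before the start are printed 5′ to 3′ along the gene for a complex II member not called in the right ventricle (Sdha), a called one (Sdhd), the member with the largest called fall (Atp5e) and the c subunit gene with the most FPKM (Atp5g3). Capitals mark a motif on either strand, NRF1 in Sdha, NRF1 and then GABP in Sdhd, GABP in Atp5e and ERR in Atp5g3. All 4 genes lie on the minus strand, at chr13:74350241-74350390, chr9:50603850-50603999, chr2:174464102-174464251 and chr2:73911327-73911476 in the same order.
Sdha: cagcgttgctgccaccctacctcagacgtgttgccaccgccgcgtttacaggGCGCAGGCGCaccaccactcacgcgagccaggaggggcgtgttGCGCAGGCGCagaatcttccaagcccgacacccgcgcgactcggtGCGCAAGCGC
Sdhd: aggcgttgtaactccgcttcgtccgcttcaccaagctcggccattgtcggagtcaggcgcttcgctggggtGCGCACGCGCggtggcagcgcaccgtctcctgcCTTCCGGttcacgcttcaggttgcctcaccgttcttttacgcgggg
Atp5e: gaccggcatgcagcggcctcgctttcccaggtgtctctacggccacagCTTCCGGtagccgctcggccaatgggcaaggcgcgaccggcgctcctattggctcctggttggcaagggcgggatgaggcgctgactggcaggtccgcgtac
Atp5g3: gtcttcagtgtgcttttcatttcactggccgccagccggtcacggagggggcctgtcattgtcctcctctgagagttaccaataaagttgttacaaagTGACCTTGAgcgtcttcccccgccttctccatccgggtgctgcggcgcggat
With banding, the 8 tested members that hold an NRF1 match had a median log2 change of -0.65 in the right ventricle with 5 called lower, and the 21 without one had -0.87 with 14 called lower. For GABP the values were -0.76 with 8 of 11 called lower and -0.81 with 11 of 18. The changes ran from -1.24 to -0.20 with an NRF1 match and from -1.62 to -0.13 without one, so the ranges overlapped, and no test was made of the motifs.

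All but 1 member were expressed well enough to test. Of the 37 genes, 36 reached 1 FPKM in at least 4 libraries, and 33 had a median over the libraries of 100 FPKM or more. Atp5k, the e subunit in the membrane part of ATP synthase, had the most FPKM, 2052 to 8402 over the 16 libraries. Atp5g2, 1 of the 3 genes for the c subunit, was at 0 in 13 libraries and at 0.530, 0.423 and 0.703 FPKM in the others, and it was not tested. Cycs, the somatic gene of cytochrome c, had 0.586 to 3.55 FPKM and Uqcrb, a small subunit of complex III, had 10.4 to 141 FPKM. Part of the sequence of such genes recurs in other transcripts, so that the authors' counting may have split or dropped their reads. Of the 50-base stretches of a member's transcript, 84.8% recurred in transcripts of other genes for Atp5l, 56.2% for Atp5g1, 53.0% for Cox7c, 50.5% for Atp5h, 50.3% for Atp5o, 43.4% for Uqcrb, 40.6% for Usmg5, 38.7% for Atp5f1, 32.0% for Cox5a, 30.6% for Cox5b, 28.5% for Cycs and 24.8% for Uqcrc2, and every such stretch of Atp5g2 recurred. In the other members the share was at most 17.2%, for Cox6c. Over the 37 members the rank correlation of this share with the median FPKM was -0.60, and the levels of these genes are uncertain for that reason.

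The samples behaved as ventricular muscle with some traces of other cells. The 8 cardiomyocyte markers summed to between 19670 and 50527 FPKM in each library, and Ucp1, the defining gene of brown fat, was at 0 in all. The 5 markers of the brown fat list summed to 5480 to 7246 FPKM in RV sham, 1312 to 2959 in RV banded, 2385 to 4249 in LV sham and 3671 to 5668 in LV banded libraries, and of 2 tested 1 was called lower in the right ventricle, 1 higher in the left and 2 lower for the difference. Most of that sum was Cox7a1, a muscle isoform of a complex IV subunit that heart also expresses, with 6252 ± 821 FPKM (SD, n = 4) in RV sham and 2259.8 ± 688 in RV banded libraries. Of the skeletal muscle list 1 of 1 tested (Ckm, which heart also expresses) and of the mesothelial list 2 of 4 were called lower in the right ventricle, and the part of these lists in the results was not tested. Nppa, a natriuretic peptide gene that rises with ventricular load, lay at 40.0 to 91.9 FPKM in RV sham, 1568 to 2535 in RV banded, 85.9 to 224 in LV sham and 532 to 1147 in LV banded libraries. Markers of pancreatic islet summed to 633 to 2134 FPKM in RV sham, 63.6 to 154 in RV banded, 86.6 to 2085 in LV sham and 24.9 to 58.8 in LV banded libraries, with 4 of 4 tested called lower in the right ventricle, and their part in the results was not tested. Among all genes tested 4.93% were called lower in the right ventricle, 2.44% higher in the left and 3.56% lower for the difference. Depth, estimated from the lowest values, ran from 357443 fragments to 9.29e+06, with all 4 RV sham libraries at 1.33e+06 or below and every other library at 2.02e+06 or above. In 5 libraries, all of them banded (RV PS_9561 and PS_9564, LV PS_9552, PS_9553 and PS_9561), the ribosomal precursor Rn45s was at 0, and their scale factors were 1.24 to 1.30 against 0.843 to 1.01 in the other 11. Those 5 libraries are set apart beside the results they touch.

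In the right ventricle most members were lower after banding. Of 36 tested, 23 were called lower, by 1.39-fold to 2.57-fold, and 0 were called higher. At an unadjusted p below 0.05 in limma on both scales 25 were lower and 0 higher. The share of all genes past that unadjusted cut was not counted, here or for the comparisons below. Among all genes tested 4.93% were called lower and 10% higher. Over the members the median log2 change came to -0.80 on the deposited and -1.02 on the rescaled values, beside 0.26 and 0.09 over all genes. The count depended on the scaling, and 23 members passed as deposited and 28 rescaled. Where every library was brought to the same sum, 1 member (Atp5e) was called lower and 1 (Uqcrb) higher, and the median of all genes moved to 0.65. After quantile normalization 12 were called lower. The members' median was below 0 under each of 5 scalings, at its smallest -0.30 with equal sums. For 24 members no banded library overlapped a sham library on the lower side, against 5.07% of all genes, and on the higher side none was apart, against 12.6%. Libraries as deposited summed to 51060, 36736, 44082 and 43767 FPKM over the members in RV sham and to 26151, 22778, 28792 and 20022 in RV banded, so the groups did not overlap.

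**Figure D1:**
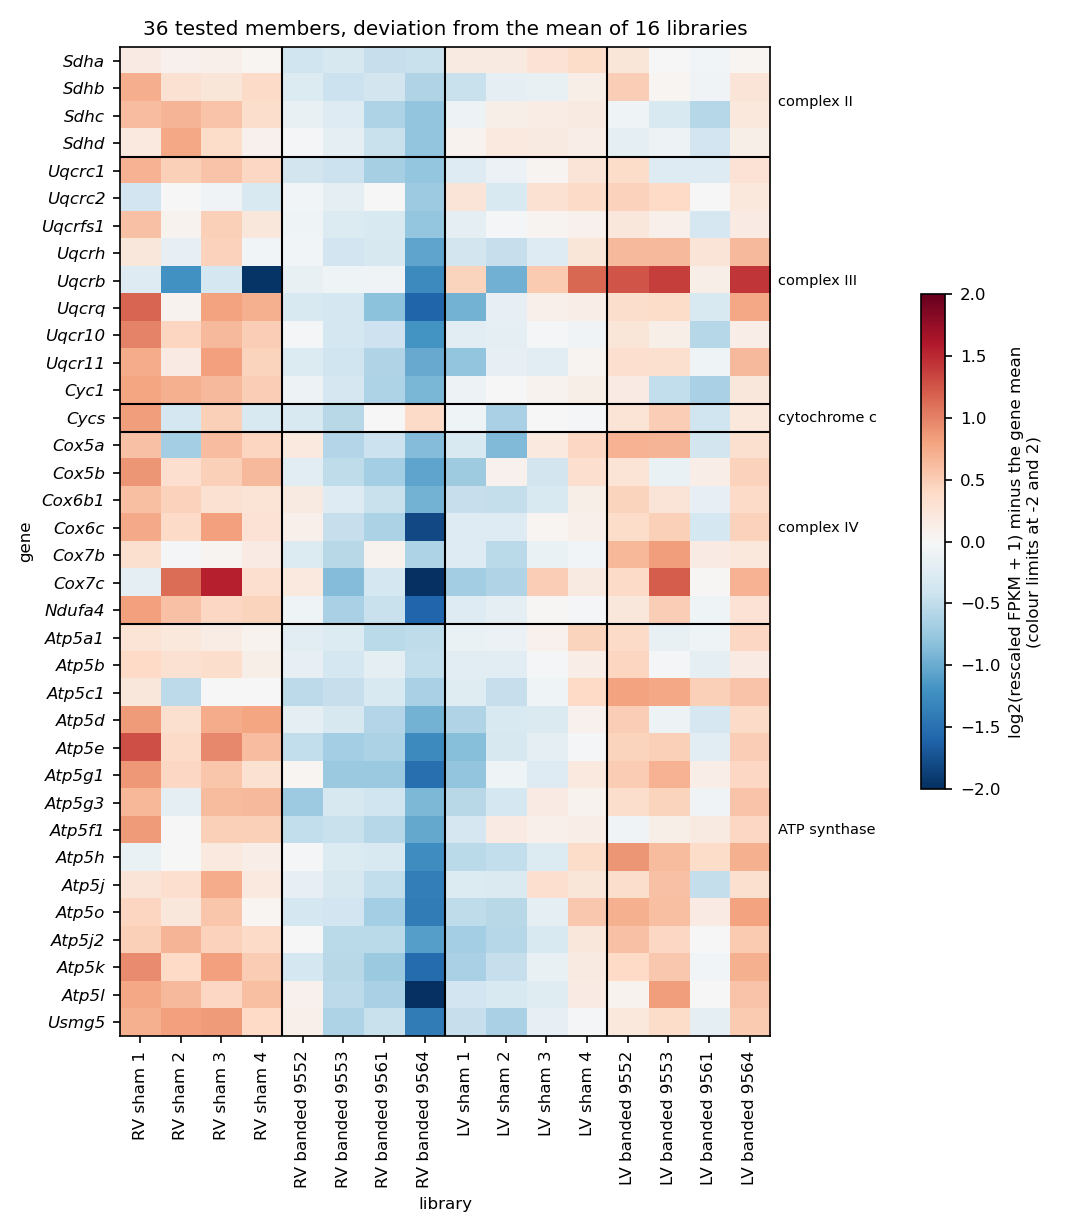
Each of the 36 tested genes (rows, by complex) in each of the 16 libraries (columns, by group), coloured by log2(rescaled FPKM + 1) minus the gene's mean over the libraries. RV sham columns are mostly red, RV banded columns mostly blue with PS_9564 the darkest, and Uqcrb and Uqcrc2 are bluer in RV sham than in LV sham.

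Complex II is the smallest complex and 3 of its 4 genes were lower in the banded right ventricle, with a median log2 change of -0.55 (-0.77 rescaled). Values below follow the order sham 1, 2, 3, 4 and banded PS_9552, PS_9553, PS_9561, PS_9564. Sdhc, a membrane anchor that helps to bind haem and ubiquinone, had 1000.1, 978, 920.2 and 902 FPKM in RV sham and 571, 543, 567 and 522 FPKM in RV banded libraries. The lowest sham library lay far above the highest banded one, and the log2 change was -0.79 (SE 0.13), with an adjusted p of 0.000943 as deposited and 0.00151 rescaled. Sdhb, the iron-sulfur subunit, had 981, 687, 660.4 and 832 FPKM in sham and 471, 439.9, 609.8 and 537 in banded libraries. The groups did not overlap and the log2 change was -0.61 (SE 0.18), adjusted p 0.0282 as deposited and 0.00272 rescaled. Sdhd, the other anchor, had 385, 539, 410.4 and 384 FPKM in sham and 318, 293, 329 and 269 in banded libraries. Sham library 2 stood highest, and the log2 change was -0.50 (SE 0.13), adjusted p 0.0182 as deposited and 0.0106 rescaled. Sdha, the flavoprotein that holds the succinate site, had 335, 296, 304 and 331 FPKM in sham and 218, 240.0, 289 and 304 in banded libraries. Banded library PS_9564 lay inside the sham range, and the log2 change of -0.28 (SE 0.15) was not called (adjusted p 0.198 as deposited and 0.00388 rescaled). The call of Sdhb was lost without any 1 of RV sham 1 or 4 or RV banded PS_9552, PS_9553 or PS_9564, with an adjusted p of up to 0.0768. That of Sdhd was lost without RV sham 2 or without RV banded PS_9564, with up to 0.0559.

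Complex III had 6 of 9 genes lower, with a median log2 change of -0.88 as deposited and -1.10 rescaled. Among them were both subunits that carry its last electron steps and 1 of the 2 core subunits. Cyc1, the cytochrome c1 subunit that hands electrons to cytochrome c, had 1172, 1036, 994 and 1028 FPKM in RV sham and 602, 529.6, 586 and 491 in RV banded libraries, a log2 change of -0.94 (SE 0.16) with an adjusted p of 0.00146 as deposited and 0.00154 rescaled. Uqcrc1, a core subunit, had 998, 803, 857 and 886 FPKM in sham and 455, 454, 512 and 494 in banded libraries, a log2 change of -0.88 (SE 0.16) with an adjusted p of 0.00190 as deposited and 0.000642 rescaled. For both genes every banded library lay below every sham library. Uqcrfs1, the Rieske iron-sulfur protein, had 531, 347, 463 and 446 FPKM in sham and 320.1, 292, 378 and 286 in banded libraries, so that banded PS_9561 overlapped sham 2. Its change of -0.48 (SE 0.16) was barely called, with an adjusted p of 0.0488 as deposited and 0.00982 rescaled, and it was lost in 12 of 16 fits that left out 1 library, with an adjusted p of up to 0.124. It held only without RV sham 2, RV banded PS_9561, LV banded PS_9552 or LV banded PS_9564.

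Among the small subunits of complex III the largest fall was that of Uqcrq, with 3700.2, 1626, 2734 and 2906 FPKM in RV sham and 1283, 1292, 1243 and 748 in RV banded libraries. Its log2 change was -1.24 (SE 0.27), adjusted p 0.00641 as deposited and 0.00648 rescaled, and banded PS_9564 was lowest of all. Uqcr10 and Uqcr11, also small membrane subunits, changed by -0.92 and -0.89. The other 3 genes were not called. Uqcrc2, the second core subunit, had 195, 239, 229 and 222 FPKM in sham and 236, 225, 338 and 211 in banded libraries and a log2 change of 0.17 (SE 0.20), -0.05 rescaled. The RV values of Uqcrc1 thus separated the groups, and those of its partner Uqcrc2 overlapped. Uqcrh, the hinge protein near cytochrome c1, had a log2 change of -0.35 (adjusted p 0.228 as deposited and 0.0767 rescaled). Uqcrb had 33.1, 15.6, 29.3 and 10.4 FPKM in sham and 34.7, 37.5, 50.2 and 22.1 in banded libraries, a log2 change of 0.77 (SE 0.43) that was not called (adjusted p 0.215 as deposited and 0.421 rescaled), and it rests on few fragments, down to an estimated 1.87 in a library.

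Cytochrome c carries single electrons between complexes III and IV. Cycs had 3.55, 0.963, 2.41 and 1.16 FPKM in RV sham and 1.04, 0.756, 2.07 and 3.21 in RV banded libraries, and the groups overlapped over most of their range. Its log2 change was -0.13 (SE 0.33), adjusted p 0.812 as deposited and 0.530 rescaled. It rests on a median of 14.5 estimated fragments a library, the fewest of the tested members.

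Complex IV had 3 of 7 genes lower, with the most negative median of the complexes, -0.98 as deposited and -1.20 rescaled. Cox5b, the zinc-binding subunit on the matrix side, had 429, 275, 307 and 394 FPKM in RV sham and 193, 162, 192 and 154 in RV banded libraries, a log2 change of -0.98 (SE 0.20) with an adjusted p of 0.00376 as deposited and 0.00210 rescaled, and its level carries the limit of shared sequence given above. Ndufa4, named for complex I and later placed in complex IV, had 3214, 2569, 2289.6 and 2671 FPKM in sham and 1658, 1152, 1779.8 and 839.7 in banded libraries, a log2 change of -1.04 (SE 0.22) with an adjusted p of 0.00512 as deposited and 0.00308 rescaled. In both genes the groups were apart and banded PS_9564 was lowest. Cox6c, a small membrane subunit, changed by -1.05 (adjusted p 0.0114 as deposited and 0.0108 rescaled).

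The other 4 genes of complex IV were not called. Cox7c, another small membrane subunit, had the most negative log2 change of all members, -1.62 (SE 0.55). Its values ran 94.4, 221, 302 and 147 FPKM in RV sham and 119.6, 58.4, 112 and 12.2 in RV banded libraries, so the groups overlapped and 1 library, banded PS_9564, stood at the bottom. Its adjusted p was 0.0503 as deposited and 0.0455 rescaled. Cox5a, a matrix-side subunit, had 387, 149.9, 371 and 373 FPKM in sham and 282, 170.4, 254 and 193 in banded libraries, where sham 2 was lower than all banded libraries, and its change was -0.44 (SE 0.34). Cox6b1, on the intermembrane side of the complex, had -0.56 (adjusted p 0.0511 as deposited and 0.0227 rescaled). Cox7b had 606 to 832 FPKM in sham and 452 to 933 in banded libraries and a change of -0.25 (SE 0.24).

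ATP synthase had 11 of 15 tested genes lower, and they were spread unevenly over its parts. In the catalytic F1 head 2 of 5 were called, in the c ring both tested genes, in the peripheral stalk 3 of 4 and among the membrane subunits all 4. The medians were -0.38 for F1, -0.93 for the c ring, -0.78 for the stalk and -1.12 for the membrane subunits as deposited. No test was made of the difference between these parts.

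The large F1 subunits that carry the nucleotide sites lay lower in the banded libraries but were not called. Atp5b, the catalytic beta subunit, had 2525, 2233, 2319.8 and 2245 FPKM in RV sham and 1654, 1497, 2221 and 1881 in RV banded libraries. Atp5a1, the alpha subunit, had 1775, 1591, 1542 and 1653 FPKM in sham and 1200.4, 1213, 1339 and 1426 in banded libraries. In both genes every banded library lay below every sham library, yet the log2 changes passed only rescaled. That of Atp5b was -0.38 (SE 0.18) and -0.60 rescaled, with an adjusted p of 0.145 as deposited and 0.0183 rescaled. That of Atp5a1 was -0.34 (SE 0.17) and -0.56 rescaled, with an adjusted p of 0.155 as deposited and 0.0345 rescaled. Atp5c1, the gamma subunit of the rotating stalk, had 203 to 364 FPKM in sham and 208 to 332 in banded libraries and a change of -0.20 (SE 0.23). The smaller subunits of the stalk differed more. Atp5e, the epsilon subunit, had 3588, 1794, 2698 and 2446 FPKM in RV sham and 1005, 915, 1261 and 843 in RV banded libraries. With a log2 change of -1.36 (SE 0.22), or 2.57-fold lower, it had the largest called fall, adjusted p 0.00105 as deposited and 0.000656 rescaled, and it was the 1 member that kept its call in the right ventricle under every alternative run. Atp5d, the delta subunit, changed by -0.97 (adjusted p 0.00385 as deposited and 0.00202 rescaled).

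The c ring turns as protons pass, and its subunit is made from 3 genes with the same mature protein. Atp5g3 had 2313, 1194, 2147 and 2465 FPKM in RV sham and 854, 1162, 1470.4 and 1079 in RV banded libraries, where sham 2 lay inside the banded range. Atp5g1 had 317, 218, 240.2 and 232 FPKM in sham and 172, 103, 137 and 83.0 in banded libraries, which did not overlap. Their log2 changes were -0.80 (SE 0.24) and -1.06 (SE 0.23), with an adjusted p of 0.0282 as deposited and 0.00674 rescaled for Atp5g3 and of 0.00586 as deposited and 0.00416 rescaled for Atp5g1. The call of Atp5g3 was lost without any 1 of RV sham 1, 3 or 4 or RV banded PS_9552 or PS_9564, with an adjusted p of up to 0.0671. The share of each gene in the sum of the 3 does not depend on the scale of a library. Atp5g1 made 11.5% ± 2.96 (SD, n = 4) of the sum in RV sham, 10.1% ± 4.45 in RV banded, 10.3% ± 2.03 in LV sham and 11.4% ± 1.22 in LV banded libraries. Atp5g3 made 88.5% ± 2.96, 89.9% ± 4.44, 89.6% ± 2.04 and 88.6% ± 1.22 in the same order, and Atp5g2 at most 0.0419% in any library. Of their 50-base stretches 56.2% recurred in other genes for Atp5g1, 100% for Atp5g2 and 0% for Atp5g3. The authors' counting may have moved these shares, so the relative use of the 3 genes is uncertain. None of 12 comparisons of shares passed an exact two-sided permutation test (n = 4 per group, smallest adjusted p 0.754 over the 12), in which 4 against 4 cannot give a p below 0.0286. In the right ventricle the Atp5g1 share differed by -1.41 percentage points (exact permutation p = 0.543).

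The peripheral stalk holds the catalytic head still. Atp5o, the OSCP subunit at its tip, had 825, 676, 852 and 680.4 FPKM in RV sham and 462, 469, 511 and 319.9 in RV banded libraries, which did not overlap, and a log2 change of -0.80 (SE 0.22) with an adjusted p of 0.0232 as deposited and 0.0131 rescaled. Atp5f1, subunit b, changed by -0.87 and Atp5j, coupling factor 6, by -0.76. The call of Atp5o was lost without RV sham 3 or RV banded PS_9564 (adjusted p up to 0.0811), and that of Atp5j without RV sham 3 or RV banded PS_9553 or PS_9564 (up to 0.112). Atp5h, subunit d, was not called, with 258 to 335 FPKM in sham, 164 to 303 in banded libraries and a change of -0.29 (SE 0.22).

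The 4 small membrane subunits, which help ATP synthase to form dimers, were all lower. Usmg5 had 1336, 1354, 1395 and 1158 FPKM in RV sham and 848, 533, 798 and 428 in RV banded libraries, a log2 change of -1.06 (SE 0.21) with an adjusted p of 0.00376 as deposited and 0.00332 rescaled. Atp5k changed by -1.24, Atp5l, subunit g, by -1.17 and Atp5j2, subunit f, by -0.83. For each of these 4 genes every RV banded library lay below every RV sham library.

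**Figure D2:**
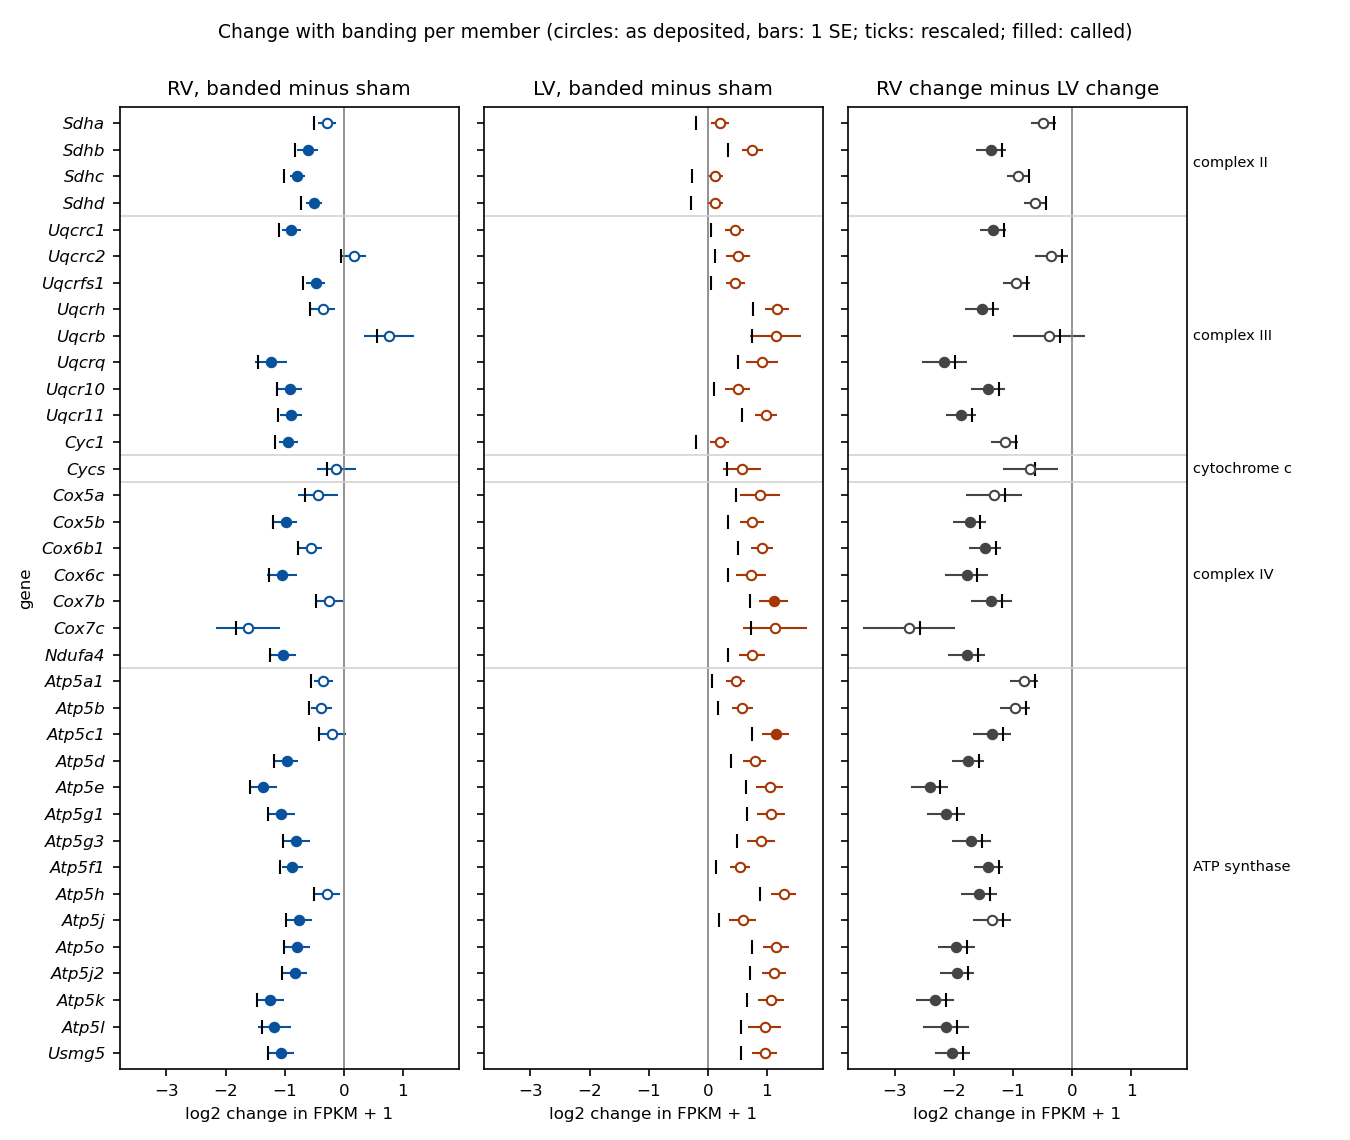
Log2 change per member in the right ventricle, in the left ventricle and the difference of both (x axis), as deposited (circles with 1 SE) and rescaled (black ticks), with called changes filled. In the right ventricle 23 circles are filled, in the left 2 (Cox7b and Atp5c1) and in the difference 23.

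Several measured features moved together with the fall in the right ventricle. Depth separated the groups completely, at 357443 to 1.33e+06 estimated fragments in RV sham and 2.32e+06 to 5.72e+06 in RV banded libraries, so depth and group cannot be told apart. Banded library PS_9564 was the lowest of its group for 26 of the 36 members, and PS_9561 the highest for 21. Without PS_9564 the count of members called lower was 17, the lowest of the 16 fits that each left out 1 library, which ran from 17 to 24. In 17 of the 23 members the call held in each of those fits. The 2 RV banded libraries with Rn45s above 0 had 26151 and 22778 FPKM over the members and the 2 with Rn45s at 0 had 28792 and 20022. With the 11 libraries in which Rn45s was above 0 alone, 8 members were called lower, and the complex medians were -0.62 for II, -0.84 for III, -0.76 for IV and -0.84 for ATP synthase, beside -0.55, -0.88, -0.98 and -0.83 with all libraries.

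Transcript length moved with the changes as well. The members are short, with a median of 742 nt against 2180 nt for all genes. Over the 36 members the rank correlation of the right ventricular change with log2 length was 0.48, so that shorter members had the more negative changes. The correlation was 0.55 after the length and GC correction given below, so it was not removed by that correction. With equal sums it was 0.46, and after quantile normalization it was smaller, at 0.20. These members share libraries and overlap in function. The 1590 other transcripts of 300 to 1200 nt had a median change of 0.03, beside 0.26 over all genes. With a correction of the libraries for transcript length and GC content, the other short transcripts had a median of -0.06 and the members -0.96. In that 1 fit 31 members passed as lower, beside 28 in the rescaled fit alone and 23 called on both scales.

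The level of cardiomyocyte markers in the libraries also moved with the groups. Of the 8 cardiomyocyte markers 3 were called lower in the right ventricle, with a median of -0.23, and their summed level was 30579 to 34191 FPKM in RV sham and 19670 to 27968 in RV banded libraries. The members summed to 1.35 ± 0.149 (SD, n = 4) times the cardiomyocyte markers in RV sham, 1.04 ± 0.237 in RV banded, 1.08 ± 0.0687 in LV sham and 1.01 ± 0.107 in LV banded libraries. RV banded PS_9552 at 1.33 lay inside the RV sham range of 1.20 to 1.55, and the other 3 lay below it at 0.750 to 1.05. Of the 8 fibroblast markers 2 were called higher in the right ventricle. Among all genes tested 4.93% were called lower and 10% higher there. In bulk tissue fewer muscle cells and less RNA per cell cannot be told apart.

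In the left ventricle the members lay higher after banding as deposited, and few held once rescaled. All 36 had a positive change as deposited, with a median of 0.83 beside 0.33 over all genes. Rescaled, the median was 0.43 beside 0.01. Adjusted p-values passed for 21 members as deposited and 2 rescaled, and 2 were called higher by limma on both scales, with 2.44% of all genes called higher. None was called lower, against 0.289% of all genes, and at an unadjusted p below 0.05 on both scales 13 were higher and 0 lower. For 24 members the banded libraries all lay above the sham libraries as deposited, where 22.2% of all genes did so, and for none did they all lie below, against 0.942%.

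The 2 called genes were a membrane subunit of complex IV and the gamma subunit of ATP synthase. Cox7b had 588, 412, 560.0 and 625 FPKM in LV sham and 1431, 1594, 1033 and 792 in LV banded libraries, a log2 change of 1.11 (SE 0.24) with an adjusted p of 0.00682 as deposited and 0.0479 rescaled. Atp5c1 had 278, 204, 271 and 395 FPKM in sham and 734, 711, 600.4 and 476 in banded libraries, a log2 change of 1.15 (SE 0.23) with an adjusted p of 0.00406 as deposited and 0.0341 rescaled. For both genes the groups did not overlap. Atp5h came next, with 181 to 354 FPKM in sham and 479 to 705 in banded libraries and a change of 1.28 (SE 0.22), adjusted p 0.00205 as deposited and 0.0505 rescaled. None of the 3 was called in the right ventricle.

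The complexes differed in where they stood in the left ventricle. The median log2 change of complex II was 0.17 as deposited, but -0.23 rescaled, -0.03 with equal sums, -0.51 after quantile normalization and -0.30 after the length and GC correction. Complex III had 0.52 as deposited, 0.11 rescaled and -0.11 after quantile normalization. Complex IV, at 0.88 as deposited and 0.47 rescaled, and ATP synthase, at 0.96 and 0.56, stayed above 0 under all 5 scalings. Sdhc had 636 to 718 FPKM in LV sham and 613 to 838 in LV banded libraries, and Sdhd 345 to 371 and 359 to 419. Those ranges overlapped, while Atp5o, with 377 to 867 and 962 to 1369 FPKM, and Atp5e, with 864 to 1399 and 1769 to 2743, did not overlap as deposited. Rescaled, both overlapped, with LV sham up to 954 and LV banded from 738 for Atp5o, and up to 1539 and from 1358 for Atp5e. As deposited the LV groups were apart for 1 of 4 complex II genes (Sdhb) and 13 of 15 of ATP synthase, against 22.2% of all genes.

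Among the 4 redox subunits of complexes II and III, the left ventricular values of 1 passed as deposited and of 0 once rescaled. Sdha had 344 ± 30.2 FPKM (SD, n = 4) in LV sham and 400.4 ± 68.0 in LV banded libraries, and Cyc1 had 656 ± 41.3 and 769.7 ± 196. Uqcrfs1 had 334 ± 23.7 and 466 ± 80.2 FPKM, and neither it nor those genes passed on either scale. Sdhb, at 511 ± 78.9 and 866 ± 181, passed as deposited alone, with a log2 change of 0.75 (0.35 rescaled, adjusted p 0.0113 as deposited and 0.245 rescaled). As deposited the LV groups of Sdhb and of Uqcrfs1 did not overlap, and those of Sdha and Cyc1 did. Among the core and small subunits of complex III, Uqcrc1 had 587 ± 87.3 FPKM in sham and 811 ± 179.9 in banded libraries, Uqcrq 1405 ± 377 and 2619.5 ± 508, and Uqcrb 54.1 ± 28.3 and 111 ± 36.1. Uqcrq passed as deposited alone and the other genes on neither scale.

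In complex IV, Cox5b had 206 ± 61.5 FPKM in LV sham and 337 ± 41.2 in LV banded libraries, and Ndufa4 had 1626 ± 136 and 2752 ± 520.4. Both passed as deposited alone. Cox5a, at 237 ± 87.5 and 430.3 ± 148, Cox7c, at 98.4 ± 37.3 and 216 ± 82.8, and Cycs, at 1.25 ± 0.445 and 2.40 ± 0.921, passed on neither scale. In ATP synthase, the catalytic Atp5b had 1755 ± 229.9 FPKM in LV sham and 2654 ± 587 in LV banded libraries, Atp5g3 1268 ± 266 and 2338 ± 314, and Usmg5 634 ± 127 and 1225 ± 176. These 3 passed as deposited alone, and Atp5a1, at 1498 ± 304 and 2067 ± 362, on neither scale.

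The left ventricular count moved with single libraries and with measured features of them. It was 0 without any 1 of LV sham 1, 2 or 3 or LV banded PS_9552, PS_9553 or PS_9561, 1 without LV banded PS_9564, RV banded PS_9553 or RV sham 1, 3 or 4, 3 without RV sham 2, 4 without RV banded PS_9564 and 6 without LV sham 4. LV sham 2 was the lowest of its group for 28 members and LV sham 4 the highest for 30. The 3 LV banded libraries with Rn45s at 0 had 55071, 51976 and 39014 FPKM over the members and the one above 0 had 44025, while LV sham libraries had 22695 to 33197. With the 11 libraries in which Rn45s was above 0 no member was called, and LV banded was then 1 library whose spread was taken from the other groups. The left ventricular medians in that fit were 0.16 for complex II, 0.41 for III, 0.66 for IV and 0.85 for ATP synthase, beside 0.17, 0.52, 0.88 and 0.96 with all libraries. Cardiomyocyte markers summed to 20725 to 32173 FPKM in LV sham and 41448 to 50527 in LV banded libraries. Of the 8, 2 were called higher, against 2.44% of all genes. Other short transcripts had a median change of 0.55 as deposited, and after the length and GC correction they had 0.01 and the members 0.16.

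The change with banding itself differed between the ventricles. For 23 of 36 members the right ventricular change was called lower than the left one, against 3.56% of all genes, and for 0 it was called higher, against 0.529%, with 31 lower and 0 higher at an unadjusted p below 0.05 in limma on both scales. With equal sums 1 member was called lower and after quantile normalization 7. The median difference was -1.45 log2 as deposited and -1.26 rescaled, beside -0.07 and 0.08 over all genes. By complex 1 of 4 genes was called in complex II, 5 of 9 in complex III, 5 of 7 in complex IV and 12 of 15 in ATP synthase. Of the 23 members called in the right ventricle 18 were also called here. The difference was -2.41 (SE 0.32) for Atp5e, -2.31 for Atp5k, -2.16 for Uqcrq and -1.36 for Sdhb, with an adjusted p of 0.000690, 0.000825, 0.00308 and 0.00375 as deposited. Sdhc, at -0.91, passed as deposited but not rescaled (0.0973), and Sdha, at -0.49, passed on neither. Complex II had the least negative median of the 4 complexes, -0.77 as deposited, and it turned to 0.18 after quantile normalization. Cardiomyocyte markers moved with this difference. Of the 8, 3 were called lower, with a median of -0.87, and the difference was -2.18 for Tnni3, -2.15 for Myl2 and -1.28 for Myl3, which encode troponin I and myosin light chains. Their part in the members' difference was not tested.

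Leaving out single libraries moved this count. It ran from 17, without LV sham 1, to 27, without LV banded PS_9561, and 16 of the 23 calls held without each library in turn. Uqcrq, Uqcr10, Cox6b1, Cox6c, Cox7b, Atp5h and Atp5l lost theirs in 1 or more of these fits, with an adjusted p of up to 0.0967, for Uqcr10. With only libraries in which Rn45s was above 0, LV banded was 1 library and 0 members were called, while the complex medians of that fit, given above, were -0.62 to -0.84 in the right ventricle and 0.16 to 0.85 in the left. The rank correlation of the difference with log2 length over the 36 members was 0.65, and 0.61 after the length and GC correction, under which 21 members were called lower.

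**Figure D3:**
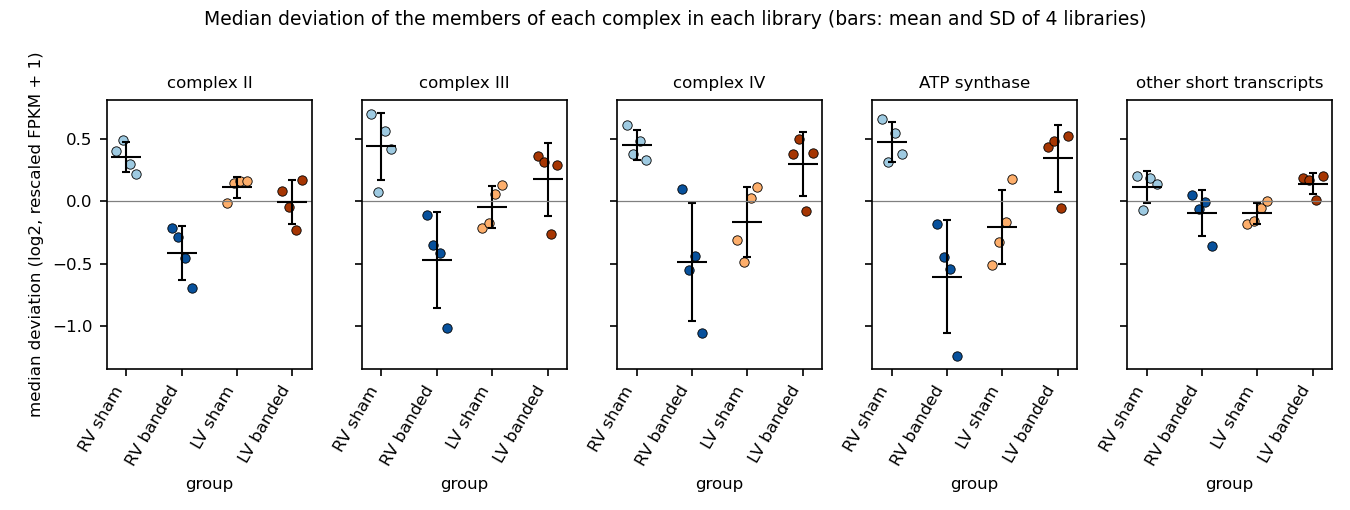
Median deviation of the members of a complex from their means, in log2 of rescaled FPKM + 1, for each library (points) in 4 groups, with the mean and SD of 4 libraries (bars), and the same for the 1590 other transcripts of 300 to 1200 nt. For ATP synthase the RV sham libraries lie at 0.31 to 0.66 and the RV banded ones at -1.24 to -0.18, whereas the RV groups of the other short transcripts overlap and all their points lie between -0.36 and 0.20.

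The balance between complexes within a library does not depend on its scale. The median deviation of ATP synthase minus that of complex II was 0.12 ± 0.20 (SD, n = 4) in RV sham, -0.19 ± 0.25 in RV banded, -0.32 ± 0.24 in LV sham and 0.35 ± 0.14 in LV banded libraries. The right ventricular groups overlapped, at -0.18 to 0.26 and -0.54 to 0.03, and the left ventricular ones did not, at -0.50 to 0.02 and 0.18 to 0.52. ATP synthase minus complex IV stayed closer to 0, with group means of 0.03, -0.12, -0.04 and 0.05 in the same order. Transcript length differs between the complexes, with 1142 to 2900 nt in complex II beside a median of 742 nt over the members. The rank correlation of the left ventricular change with log2 length over 36 members was -0.53 rescaled and -0.26 after the length and GC correction. The balance was taken from rescaled values without that correction, and the part of length in it was not tested. These are descriptions of the members as a set and carry no test.

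Between the sham ventricles the right lay above the left. In the sham hearts 6 members were called higher in the right ventricle, with 2.51% of all genes called, and 0 lower, against 1.33%. At an unadjusted p below 0.05 in limma on both scales 21 were higher and 1 lower. As deposited 12 passed. For 19 members all RV sham libraries lay above all LV sham libraries, against 6.4% of all genes, and for 0 below, against 5.04%. The median was 0.61 as deposited and 0.57 rescaled, beside -0.01 and -0.05 over all genes, but 0.03 with equal sums, where 3 members were called lower, 0 higher and the median of all genes was -0.47. The called genes were Uqcr11, Atp5d, Atp5e, Atp5j2, Atp5k and Usmg5, so 5 of 6 belong to ATP synthase. Atp5e had 864, 1056, 1204 and 1399 FPKM in LV sham, all below the RV sham values given above, a difference of 1.20 (SE 0.22) with an adjusted p of 0.0141 as deposited and 0.0133 rescaled. Usmg5 differed by 1.07 and Atp5k by 0.98. Sdha (-0.12) and Uqcrc2 (-0.31) had small differences below 0 that were not called, and Uqcrb differed by -1.20 (SE 0.43), adjusted p 0.119 as deposited and 0.102 rescaled. The count was 1 without LV sham 1 or LV sham 3, 2 without LV sham 2 or RV sham 3, 3 without RV sham 1, 10 without LV sham 4 and 13 without RV banded PS_9564, and Atp5e alone held its call without each library. The RV sham libraries are also the shallowest, and depth and group cannot be told apart here.

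Between the banded ventricles the order was turned. In banded hearts 10 members were called lower in the right ventricle than in the left, against 1.44% of all genes, and 0 higher, against 0.174%, with 31 lower and 0 higher at an unadjusted p below 0.05 on both scales. As deposited 25 passed. For 30 members all RV banded libraries lay below all LV banded libraries, against 8.16% of all genes, and for 0 above, against 2.43%. The median was -0.94 as deposited and -0.80 rescaled, beside -0.10 and 0.01 over all genes, and it stayed below 0 under all 5 scalings, although that of complex II was 0.03 after quantile normalization. The count did not stay, with 0 members called with equal sums and 5 after quantile normalization. Of the 8 cardiomyocyte markers 4 were called lower in this comparison, with a median of -0.82 as deposited, and their part in it was not tested. The called genes were Sdha, Uqcrh, Cox7b, Atp5c1, Atp5e, Atp5g1, Atp5f1, Atp5h, Atp5o and Atp5k. Of these, Atp5g1, Atp5f1, Atp5h and Atp5o carry the limit of shared sequence given above. Atp5o had 1369, 1242, 962 and 1113 FPKM in LV banded libraries, a difference of -1.42 (SE 0.22) with an adjusted p of 0.00463 as deposited and 0.0262 rescaled. Atp5c1 differed by -1.28 (SE 0.23), adjusted p 0.00653 as deposited and 0.0111 rescaled, and it was the 1 call that held without each library. The count was 1 without RV banded PS_9564 or LV banded PS_9552, PS_9553 or PS_9564, 2 without RV banded PS_9553 or PS_9561 and 4 without LV sham 3, and it was 0 with only libraries in which Rn45s was above 0, where LV banded was 1 library.

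Set side by side, the 4 groups fell into an order that most members shared. For 33 of 36 members the means of RV sham and LV banded both exceeded those of RV banded and LV sham as deposited, and for 30 rescaled. Rescaled, 27 members were highest in RV sham and 34 were lowest in RV banded, whereas as deposited 26 were highest in LV banded. These comparisons share groups, so their agreement is no separate evidence. The members made 7.63% ± 1.23 (SD, n = 4) of all FPKM other than Mir6236 and Rn45s in RV sham, 5.54% ± 1.08 in RV banded, 6.89% ± 1.28 in LV sham and 8.54% ± 1.14 in LV banded libraries. RV banded PS_9564 was lowest at 3.93%. Mir6236 alone took 21.3 to 59.7% of the FPKM of a library.

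**Figure D4:**
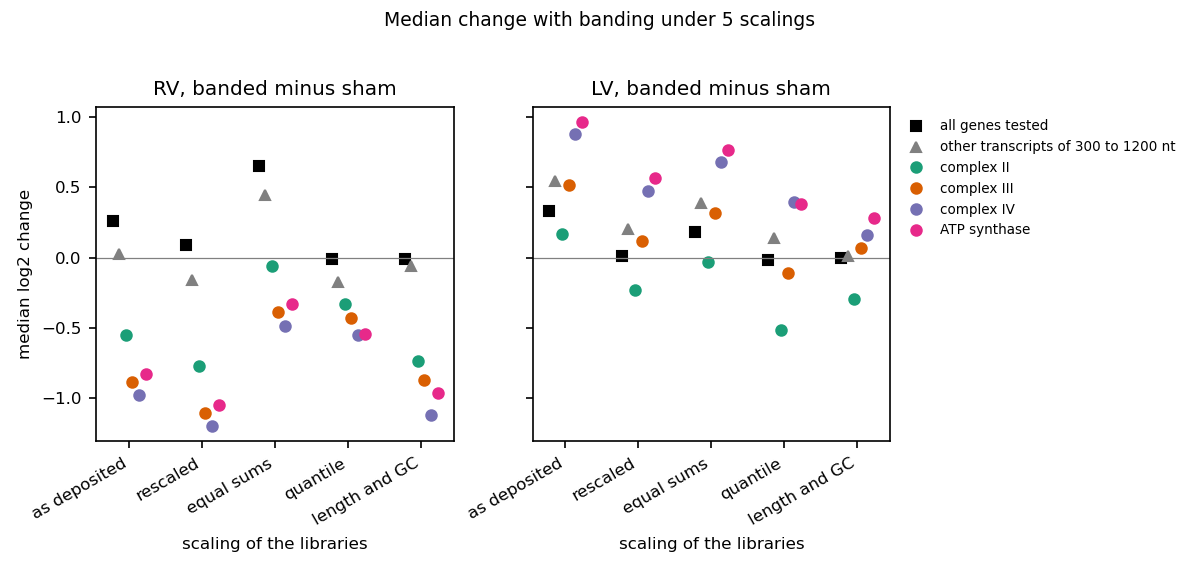
Median log2 change with banding (y axis) of 4 complexes, of all genes tested and of other short transcripts under 5 scalings of the libraries (x axis), in the right and the left ventricle. In the right ventricle all 4 complexes lie below 0 and below all genes under each scaling, and in the left ventricle complex II lies below 0 under every scaling but the deposited one.

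Genes that build the complexes or export their ATP were looked at from lists written for this purpose. Among all genes tested 10% were called higher and 4.93% lower in the right ventricle, and 2.44% higher in the left. Of 33 assembly factors tested 1 was called higher and 1 lower in the right ventricle, with a median of -0.13, and 1 higher in the left, with 0.34. The fall in the right ventricle and the rise in the left were both of Uqcc2, a complex III assembly factor, which had 236 ± 39.5 FPKM (SD, n = 4) in RV sham, 143 ± 37.6 in RV banded, 129 ± 35.4 in LV sham and 342 ± 67.2 in LV banded libraries. Its log2 changes were -0.74 and 1.41, and their difference of -2.15 was called (adjusted p 0.000825 as deposited and 0.00416 rescaled). Sco1, a copper chaperone of complex IV, rose by 0.82 in the right ventricle.

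Of 7 genes for ATP export and the ATPase inhibitor 2 were lower in the right ventricle and 1 was higher in the left. Among all genes 4.93% and 2.44% were called in these directions. Slc25a4, the ADP/ATP carrier of heart muscle, had 4887 ± 504 FPKM in RV sham and 2949 ± 198 in RV banded libraries, a log2 change of -0.73 (adjusted p 0.0111 as deposited and 0.00543 rescaled). Slc25a3, the phosphate carrier, changed by -0.53. Vdac2, a channel of the outer membrane, rose by 0.99 in the left ventricle.

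Regulators of respiratory gene expression were called in both directions in the right ventricle. Of 15 tested, 1 was higher (Tfb1m, 1.17) and 2 lower (Esrra and Polrmt) in the right ventricle, and 1 lower (Ppargc1b, -0.87) in the left. Among all genes tested the shares called were 10% higher and 4.93% lower in the right ventricle and 0.289% lower in the left. Esrra, a nuclear receptor of mitochondrial genes, had 90.7 ± 11.0 FPKM in RV sham and 50.9 ± 8.24 in RV banded libraries, a log2 change of -0.83 (adjusted p 0.00230 as deposited and 0.00119 rescaled). Polrmt, the mitochondrial RNA polymerase, changed by -0.84. The log2 change was 0.36 for the coactivator Ppargc1a, 0.51 for Gabpa and -0.09 for Tfam, which packs mitochondrial DNA, and none of these was called. Nrf1 had 0.80, not called, with an adjusted p of 0.0437 as deposited and 0.0517 rescaled.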

How the data were processed

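The authors deposited FPKM per gene and library, and counts were not used here. Per the submitters' processing notes, FastQC 0.11.5, STAR 2.5.3a, Cufflinks 2.2.1, Cuffdiff, R 3.3.1 and build mm9 were used, with no roles given there. A deposited table with 1 FPKM value per group was not used. The 37 members and all lists were chosen with earlier results of these data known.

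Values were analysed as log2(FPKM + 1) in limma 3.58.1 (R 4.3.3, trended prior) as 1 fit of 4 group means over 16 libraries, for the 12100 genes that reached 1 FPKM in 4 or more libraries. Scale factors were median ratios to the geometric mean library over 9934 genes above 0 in all. Tested on simulated data for the right ventricular comparison (12100 genes), the procedure called 86% of 4-fold falls, 44% of 2-fold falls and 0.0672% of unchanged genes. It called 90% of 4-fold and 34% of 2-fold rises. The simulation drew each gene independently, with no scale, depth, Rn45s or length difference shared across a library. Its rates therefore do not cover errors from those features, which the real libraries have. Fragments were estimated from FPKM times effective length over 7748 genes, assuming fragments of 200 nt, since the FPKM state no depth. Lengths, GC content and shared 50-base stretches came from GENCODE transcripts, with values for 98.5% of genes.

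Values per library or group are given for the genes of a list written for this report and for the members with the most negative and most positive change of a complex, other genes of lists for at most 2 per direction with the smallest p, and Ppargc1a, Esrra, Gabpa, Nrf1 and Tfam always. Same-numbered right and left libraries did not deviate together (r from -0.0911 to 0.151, over 0.1 in 1 of 8 pairs), so they were not paired. Alternatives were other pseudocounts, filters, scalings and fits, a replicate block and each library left out.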

Additional observations from a re-analysis of the deposited data

Results flagged for a closer look

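In 8 of 144 checks, 36 members in 4 groups of 4, 1 library stood apart from the other 3 by more than the critical value of the Dixon test, where chance gives about 1 in 20. High values were Sdhd in RV sham 2 (539 FPKM), Atp5j in RV sham 3 (622) and Atp5l in LV banded PS_9553 (176). Low values were Uqcrq in RV banded PS_9564 (748) and in LV banded PS_9561 (1858), Uqcr10 in LV sham 2 (1281), Cycs in LV sham 2 (0.586) and Cox5a in RV sham 2 (149.9). RV sham 2 is the shallowest library, at 357443 estimated fragments. The change with banding differed between the ventricles by the test of the difference itself for 1 member of complex II, 5 of complex III, 5 of complex IV and 12 of ATP synthase.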

How the results depend on the processing

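Counts of members called were within 1.5 times of those reported under both other pseudocounts. Equal sums, quantile normalization and the length and GC correction were 1 fit each, so their counts needed that fit alone. On deposited values alone the counts were 21 higher for the left ventricle, 12 higher between sham ventricles and 25 lower between banded ventricles. With libraries brought to equal sums they were 1 lower and 1 higher in the right ventricle, 0 higher in the left, 1 lower for the difference, 3 lower and 0 higher between sham and 0 lower between banded ventricles. After quantile normalization they were 12 lower in the right ventricle, 2 lower in the left (Sdha at -0.47 and Sdhc at -0.62), 7 lower for the difference, 1 lower and 1 higher between sham and 5 lower between banded ventricles. Without the filter they were 1 higher in the left ventricle, 3 higher between sham and 5 lower between banded ventricles. The length and GC correction gave 1 higher in the left ventricle, and a fit of the sham libraries alone gave 1 higher. Only with Rn45s above 0 they were 8 lower in the right ventricle, 0 higher in the left, 0 for the difference and 0 between banded ventricles. The cause of these shifts was not tested.

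Right ventricular medians of complex II were -0.77 rescaled, -0.057 with equal sums, -0.33 after quantile normalization and -0.74 after the length and GC correction. With equal sums and after quantile normalization they were -0.39 and -0.43 for complex III and -0.48 and -0.55 for complex IV, and with equal sums -0.33 for ATP synthase, where Sdhd stood at 6.9e-05 and Uqcrfs1 at 0.020. Left ventricular medians rescaled, after quantile normalization and after the length and GC correction were -0.23, -0.51 and -0.30 for complex II (-0.030 with equal sums), 0.11, -0.11 and 0.069 for complex III, 0.47, 0.40 and 0.16 for complex IV, and 0.56, 0.38 and 0.28 for ATP synthase.

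Leaving out 1 library at a time gave 17 to 24 lower in the right ventricle, 0 to 6 higher in the left, 17 to 27 lower for the difference, 1 to 13 higher and 0 to 1 lower between sham and 1 to 15 lower between banded ventricles. With replicate numbers as a block the counts were 23, 2, 23, 6 and 9 in the order of the comparisons. Same-numbered libraries did not deviate together, which does not settle whether a number stands for 1 mouse. Cycs, Uqcrb and Atp5l had the fewest estimated fragments of the tested members, which limits their precision.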
